A study of Mus musculus with 10 samples.

Results

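The interleukin-10 family of cytokines was followed in activated mouse T cells with and without the transcription factor KLF13. Its members here were Il24, Il10, Il19, Il20 and Il22, 5 of the 19048 genes found in both deposited tables. Il24 was chosen by its measured KO minus WT difference in these arrays, one of the lowest of all genes, so that difference is given as a description and carries no test. The other members were chosen as its relatives. A member was read from probe sets that name it and no other gene. Il24, Il10, Il19 and Il20 had such probe sets in both tables. Every probe set of Il22 also named Iltifb, a near copy of that gene, and the pair is given as Il22/Iltifb.

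Knockout cells (KO1 to KO5) came from KLF13 KO mice and wild-type cells (WT1 to WT5) from WT mice. All mice were male Balb/C animals aged 12 weeks, and the labels name a separate mouse for each array. CD3+ T cells of the spleen were cultured for 4 days on plates coated with anti-CD3, with anti-CD28 in solution, before total RNA was hybridised to Affymetrix arrays. The sources used here do not give the kind of deletion or whether it is limited to T cells. Signals on the log2 scale came in 2 tables, one at exon level with 3 arrays of each genotype and one at gene level with 2 of each. The columns of the exon-level table lay on separate scales, so values are compared only within 3 scale sets, which are replicate 1, replicates 2 with 3, and the gene-level replicates 4 with 5.

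Cytokines of this family bind paired receptor chains and signal through JAK kinases, chiefly to STAT3. IL-10 restrains inflammatory responses and is made by several helper and regulatory T cell types. IL-19, IL-20 and IL-24 share receptors found mainly on epithelial and other tissue cells, and IL-22 acts on barrier epithelia. In the mouse, Il24, Il20, Il19 and Il10 lie side by side on one chromosome, while Il22 lies near Ifng on another. Among T cells, Il24 is known mainly as a product of Th2 cells.

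The arrays carried a T cell profile. The 12 T cell identity genes found in both tables lay at a percentile of 85.3 or above among gene signals in every array, with a median percentile of 98.4 to 98.8 in knockout groups and 98.4 to 98.6 in wild-type groups. Klf13 read 5.41, 6.16, 6.07, 6.21 and 6.46 in KO1 to KO5, against 6.03, 6.95, 6.89, 7.21 and 7.54 in WT1 to WT5. It was lower in the knockout arrays of each set (log2 difference -0.86 ± 0.12, SE, 5 arrays against 5, limma adjusted p = 0.0127). That adjusted p was above 0.05 without WT2, WT3, WT4, KO4 or KO5 (0.0507 to 0.069), and 0.9998 with the table in place of the scale sets as block. KO3 stood apart, correlating with the other arrays of its set at 0.932 to 0.944, against 0.986 to 0.996 among those. The bright end of KO2 and KO3 was also lower, with a 99th percentile of 11.4 and 11.6, against 12.2 and 12.3 in WT2 and WT3. In replicates 2 and 3 the T cell identity genes differed by a median of -0.76, against -0.22 for all genes tested.

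Il24 read 10.02 in KO1, against 10.98 in WT1. It read 7.65 and 6.91 in KO2 and KO3, against 9.06 and 9.25 in WT2 and WT3. In the gene-level table it read 4.40 and 4.18 in KO4 and KO5, against 7.99 and 6.74 in WT4 and WT5. Every knockout array was below every wild-type array of its set, a pattern that 10.8% of the features tested showed. For Il24 it comes from the contrast that chose the gene. Relative to wild type, the knockout signal was 0.513 in replicate 1 and 0.273 in replicates 2 and 3. At gene level it was 0.119. Over all 10 arrays the log2 difference was -2.17 ± 0.32 (SE, 5 arrays against 5), or 0.222 of the wild-type signal. This value ranked 2 among 12486 features ordered from the lowest difference upward. The size differed between the sets, with log2 differences of -0.96, -1.87 and -3.07. Among gene signals Il24 lay at percentiles of 99.56, 77.55 and 71.24 in KO1 to KO3. In KO4 and KO5 the Il24 signal lay near the array medians of 4.25 and 4.30. The deposited signals carry no detection call, so whether the transcript was present there is not known from them. In bulk RNA, fewer Il24-producing cells and less Il24 RNA per cell cannot be told apart.

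**Figure D1:**
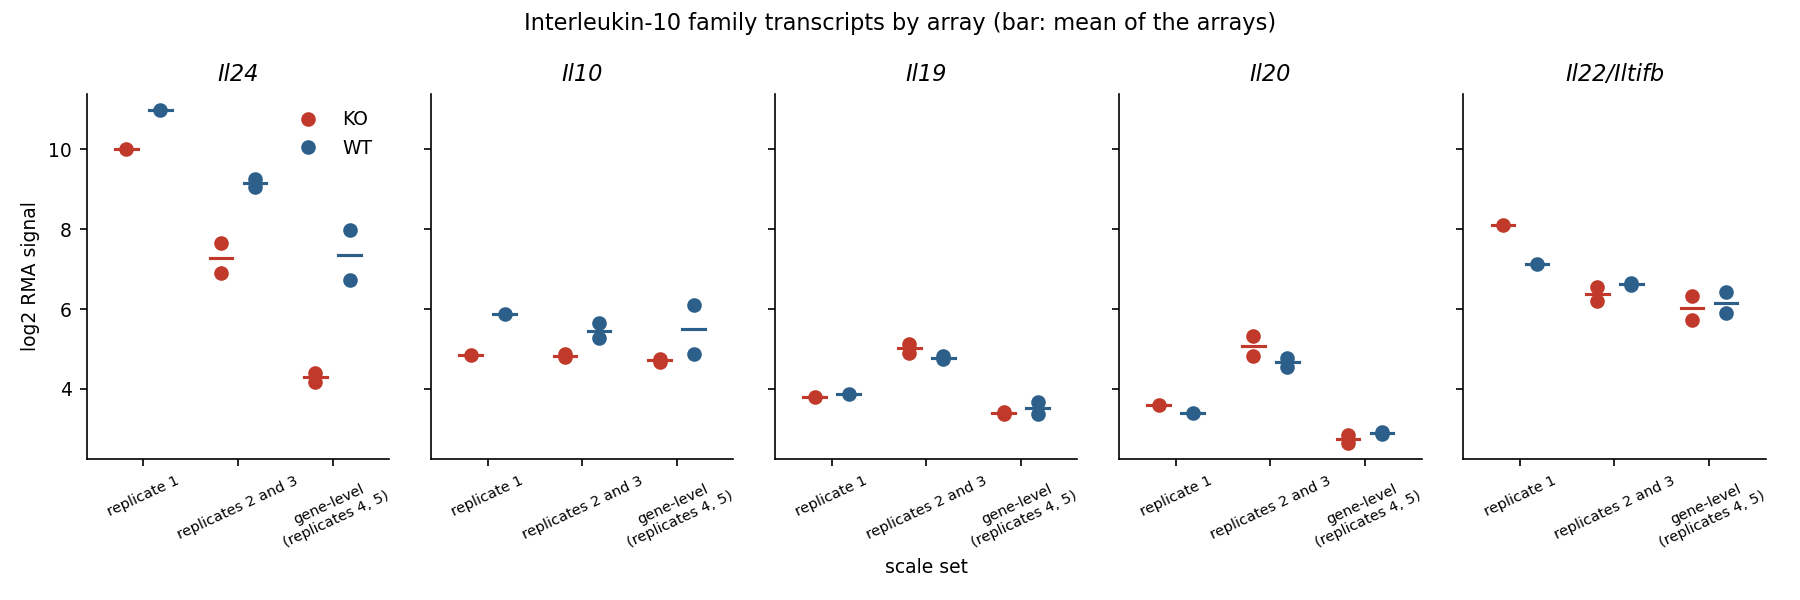
Log2 RMA signal of each interleukin-10 family member by array, with knockout arrays in red on the left and wild-type arrays in blue on the right of each scale set, and a bar at the mean of the arrays. Il24 and Il10 lie lower in the knockout arrays of every set (Il24 at 4.40 and 4.18 in KO4 and KO5, against 7.99 and 6.74 in WT4 and WT5), while Il19, Il20 and Il22/Iltifb lie higher in the knockout arrays of at least 1 set.

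The exon-level probe sets of Il24 moved together. Of its 8 exon-level probe sets, 8 were lower in KO1 than in WT1, by -1.66 to -0.67 on the log2 scale. In replicates 2 and 3, both knockout arrays were below both wild-type arrays at 8 of 8, with differences of -3.06 to -1.04. Over all 169103 probe sets tested, 20.8% were lower in both of these ways. Probe set 10357556 read 11.2, 9.23 and 8.48 in KO1 to KO3, against 12.8, 10.8 and 10.8 in WT1 to WT3. Probe set 10357560 read 8.06, 4.98 and 3.19 in KO1 to KO3, against 8.98, 7.26 and 7.02 in WT1 to WT3, and had the largest difference of the 8 in replicates 2 and 3. These counts use the contrast that chose Il24 and add no support to it.

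**Figure D2:**
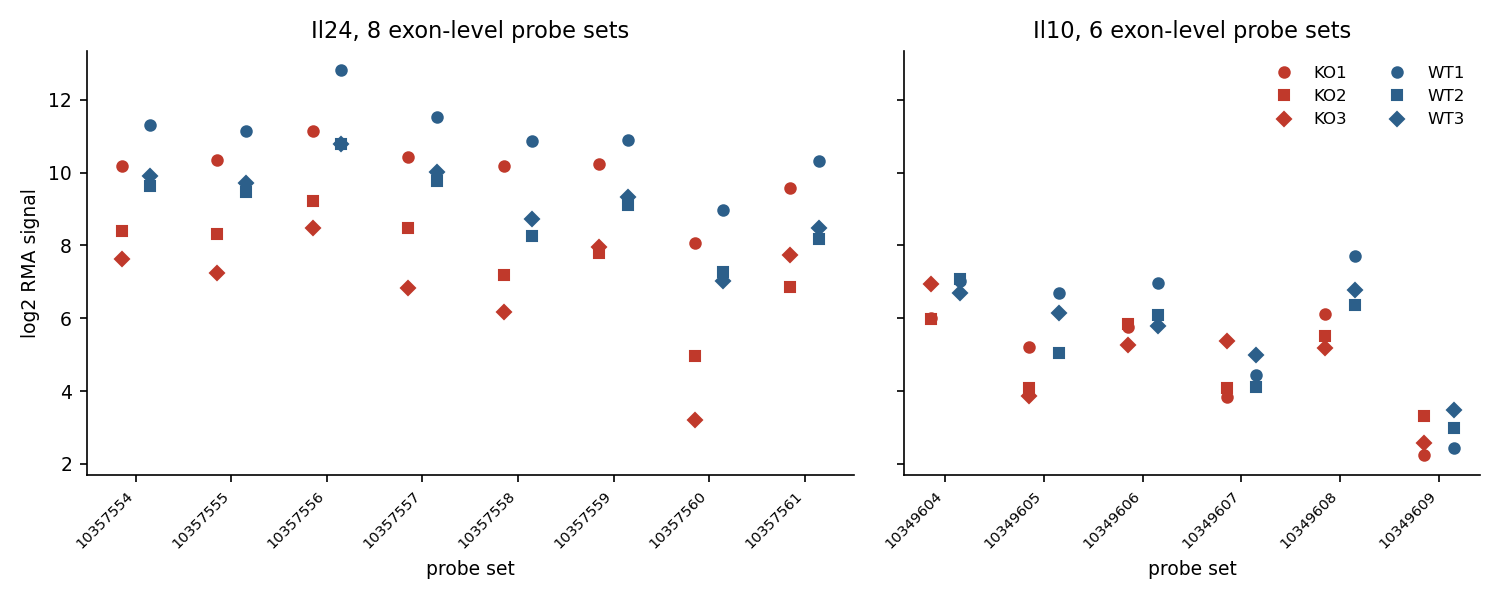
Log2 RMA signal of each exon-level probe set of Il24 (left panel) and Il10 (right panel) in the knockout arrays KO1 to KO3 (red) and the wild-type arrays WT1 to WT3 (blue), with one marker shape per replicate number. All 8 probe sets of Il24 lie lower in KO2 and KO3 than in WT2 and WT3, whereas 2 of the 6 of Il10 do.

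Il10 was also lower in each set. Over all 10 arrays its difference was smaller than that of Il24 and did not pass the test. In replicate 1 it was slightly larger, at -1.02 against -0.96. Il10 lay at percentiles of 22.97 and 16.77 among gene signals in KO2 and KO3, which limits how large a fall could show there. It read 4.86 in KO1, against 5.88 in WT1, and 4.81 and 4.86 in KO2 and KO3, against 5.28 and 5.65 in WT2 and WT3. It read 4.75 and 4.68 in KO4 and KO5, against 6.11 and 4.88 in WT4 and WT5. No knockout array reached a wild-type array of its set, a pattern that 10.8% of the features tested showed. The knockout arrays lay close together and the wild-type arrays did not, WT4 being far above WT5. The log2 difference was -0.77 ± 0.20 (SE, 5 arrays against 5), or 0.588 of the wild-type signal, with a 95% interval of -1.21 to -0.32. The unadjusted p was 0.00274 and limma's adjusted p over all features tested was 0.157. In this fit 73 of 12486 features passed at an adjusted p under 0.05, or 0.585%, of which 61 (0.489%) were lower and 12 (0.0961%) were higher in knockout cells. That count was 362 without KO3, 63 without KO2, and 12 to 28 without any other single array.

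Single arrays weighed on the Il10 value. In the gene-level table alone the difference was -0.78 (limma adjusted p = 0.256), and 2.72% of all features passed there, 1.99% being lower and 0.721% higher in knockout cells. Without WT4 it was -0.16, and without WT5 it was -1.40 (adjusted p = 0.00056). In the exon-level table alone it was -0.76 (limma adjusted p = 0.440), and without KO3 it was -0.81 (adjusted p = 0.012). By probe set, 6 of 6 of Il10 were lower in KO1 than in WT1, where 52.4% of all probe sets tested were. In replicates 2 and 3, 2 of 6 lay without overlap below the wild-type arrays, against 35.7% of all probe sets tested. Those were 10349605, at 5.22, 4.08 and 3.86 in KO1 to KO3, against 6.70, 5.05 and 6.14 in WT1 to WT3, and 10349608, at 6.10, 5.52 and 5.17 in KO1 to KO3, against 7.70, 6.36 and 6.78 in WT1 to WT3. In the test of single probe sets 0 of 169103 passed with limma (7898 at an unadjusted p under 0.05), and the smallest adjusted p among the 4 tested of Il10 was 0.743.

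Il19 and Il20, the genes between Il24 and Il10, showed no such difference, but both were dim in wild-type cells too. In WT1 to WT5 they lay at percentiles of 22.13 to 34.6 (Il19) and 13.16 to 24.27 (Il20) among gene signals. That leaves little room for a fall to show, so a shared fall cannot be judged from them. Il19 read 3.79, 4.90, 5.13, 3.37 and 3.41 in KO1 to KO5, against 3.87, 4.75, 4.82, 3.66 and 3.38 in WT1 to WT5. Il20 read 3.59, 4.83, 5.31, 2.84 and 2.65 in KO1 to KO5, against 3.40, 4.55, 4.78, 2.92 and 2.87 in WT1 to WT5. Both were under the filter on dim genes, the 30th percentile of mean signal in each table, and so had no test in the comparison over all features. Their log2 differences were 0.02 for Il19 (95% interval -0.23 to 0.27) and 0.14 for Il20 (-0.16 to 0.44). Without the filter, where 0.315% of features passed, limma's adjusted p was 0.934 for Il19 and 0.645 for Il20. Single probe sets were brighter, and 3 of the 7 of Il19 and 4 of the 7 of Il20 were tested at exon level. Probe set 10357574 of Il19 read 5.70, 6.18 and 6.20 in KO1 to KO3, against 5.94, 6.37 and 6.26 in WT1 to WT3. The smallest limma adjusted p was 0.775 among those of Il19 and 0.743 among those of Il20.

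Il22/Iltifb differed in direction between the sets. It read 8.12 in KO1, against 7.14 in WT1, and 6.55 and 6.20 in KO2 and KO3, against 6.66 and 6.60 in WT2 and WT3. It read 5.73 and 6.32 in KO4 and KO5, against 6.43 and 5.89 in WT4 and WT5. The knockout array was higher in replicate 1, both were lower in replicates 2 and 3, and the groups overlapped in the gene-level table. The log2 difference was 0.04 (95% interval -0.42 to 0.49, limma adjusted p = 0.922), and its sign turned when array medians were subtracted (-0.0094). All 12 shared exon-level probe sets, which hold 7 distinct sets of values, were higher in KO1 than in WT1 (0.56 to 1.76). The probe sets of Iltifb alone read 4.95, 4.43, 4.99, 3.69 and 3.90 in KO1 to KO5, against 3.64, 5.10, 5.03, 3.53 and 3.57 in WT1 to WT5, so that signal too was higher in KO1 than in WT1. The 2 genes cannot be told apart in the shared values.

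Whether the knockout difference itself depended on the table was tested with an interaction of genotype and table. The interaction (gene-level minus exon-level difference) was -0.02 for Il10 (limma adjusted p = 0.997) and -0.29 for Il22/Iltifb (adjusted p = 0.910). It was -1.50 for Il24, given without a test. Over all features 0 passed this test with limma, and 658 had an unadjusted p under 0.05.

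The genes around the cluster were compared next. In the order of the GRCm38.p6 annotation the genes of both tables run Fcamr, Pigr, Fcmr, Il24, Il20, Il19, Il10, Mapkapk2, Dyrk3 and Eif2d. Of the 20 nearest such genes, 10 on each side, 13 were tested and 0 passed, with a median log2 difference of -0.21 and a range of -0.49 to 0.46. The median over all genes tested was -0.10. Fcmr, a receptor for IgM and the neighbour of Il24, differed by 0.06 (limma adjusted p = 0.824), and Pigr, which carries polymeric immunoglobulin across epithelia, by 0.46 (adjusted p = 0.257). Mapkapk2, a kinase downstream of p38 and the neighbour of Il10, differed by -0.40 (adjusted p = 0.252), Dyrk3 by -0.12 (adjusted p = 0.582) and Eif2d by -0.29 (adjusted p = 0.293). Fcamr was under the filter and differed by 0.24. Every knockout array was below every wild-type array of its set in 0 of the 13 tested neighbours, a pattern shown by 10.8% of all features, and 0 of 13 is not read as a difference from that share. Around Il22, 15 of the 20 nearest genes were tested and 0 passed (median -0.28, range -0.70 to 0.22), and 1 of the 15, Tmbim4 (-0.28), showed that pattern. Among the nearest were Ifng, the Th1 cytokine, at -0.30 (limma adjusted p = 0.368), Rap1b at -0.70, Nup107 at -0.42, Mdm1 at 0.05 and Dyrk2 at 0.00.

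**Figure D3:**
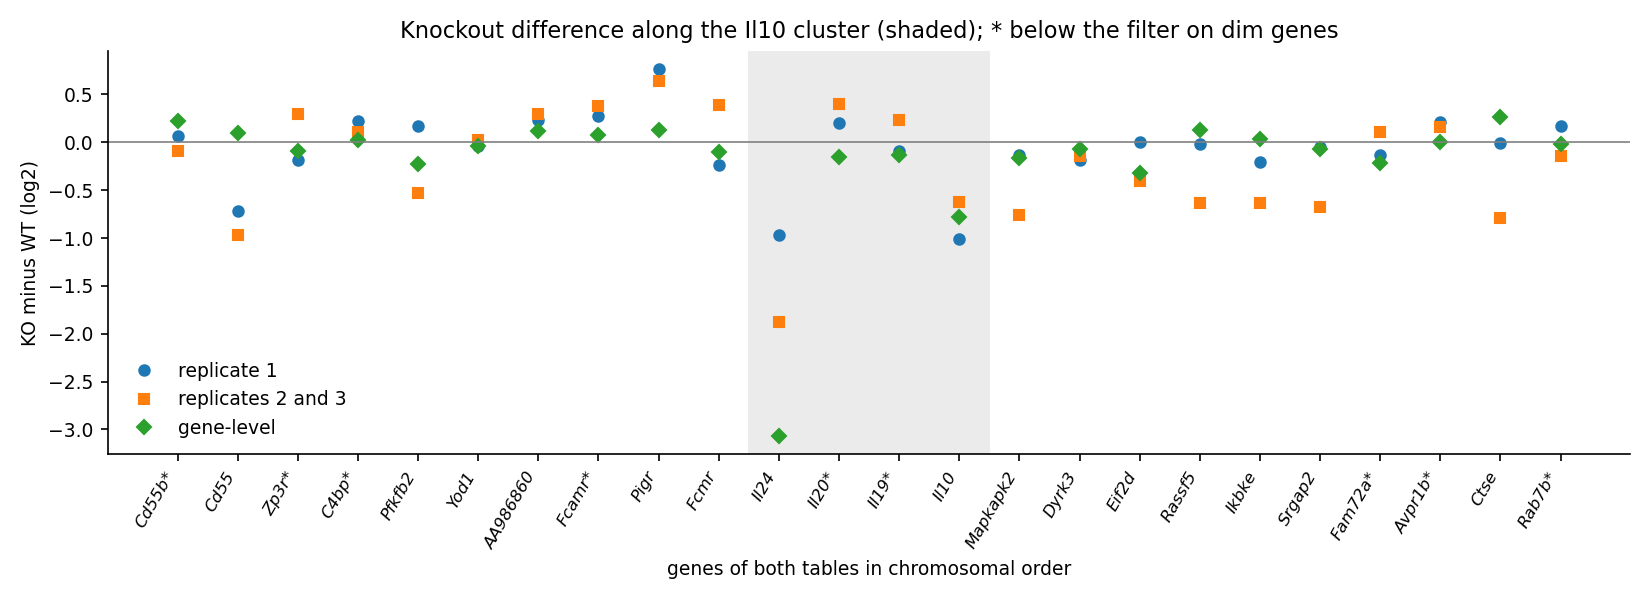
Log2 difference, KO minus WT, of the 4 genes of the Il10 cluster (shaded) and the 10 genes of both tables on each side, in chromosomal order, with one symbol per scale set and an asterisk for genes under the filter on dim genes. Il24 and Il10 lie below 0 in all 3 sets, at -0.96, -1.87 and -3.07 and at -1.02, -0.63 and -0.78, and Il20 and Il19 between them lie from -0.15 to 0.40.

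KLF factors bind CACCC boxes and related GC-rich elements, so the promoters of the 3 members held in the RefSeq promoter table (GRCm38.p6) were searched for CACCC on both strands. Each window covers 250 bases before the gene start and 50 after it. The RefSeq set held no promoter for Il24 or Il10, so the search says nothing about these genes. Il20 and Il19 lie between them, and Il22 lies outside the cluster. Capitals mark CACCC or, on the other strand, GGGTG. The window of Il20 lies at chr1:130911247-130911546 (minus strand), that of Il19 at chr1:130940066-130940365 (minus strand) and that of Il22 at chr10:118204714-118205013 (plus strand).
Il20: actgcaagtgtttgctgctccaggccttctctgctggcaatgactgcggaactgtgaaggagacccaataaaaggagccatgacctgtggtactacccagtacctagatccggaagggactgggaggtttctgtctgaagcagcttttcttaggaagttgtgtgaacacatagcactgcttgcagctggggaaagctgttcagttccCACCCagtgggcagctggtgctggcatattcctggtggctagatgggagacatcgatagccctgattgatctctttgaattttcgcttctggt
Il19: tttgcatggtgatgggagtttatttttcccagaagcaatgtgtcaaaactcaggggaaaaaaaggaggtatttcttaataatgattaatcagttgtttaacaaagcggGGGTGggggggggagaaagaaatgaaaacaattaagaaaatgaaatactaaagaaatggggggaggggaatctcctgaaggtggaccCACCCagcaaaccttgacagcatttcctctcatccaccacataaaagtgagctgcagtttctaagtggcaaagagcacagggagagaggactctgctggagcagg
Il22: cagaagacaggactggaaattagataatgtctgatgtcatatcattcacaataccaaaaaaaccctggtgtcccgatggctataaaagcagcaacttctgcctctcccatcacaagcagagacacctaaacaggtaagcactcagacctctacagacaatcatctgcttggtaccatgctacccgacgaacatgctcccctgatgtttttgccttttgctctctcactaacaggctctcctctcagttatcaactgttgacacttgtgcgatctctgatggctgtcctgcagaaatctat
Il19 had 2 matches, Il20 had 1 and Il22 had 0. Of all 32817 promoters of this length 57.5% hold at least 1 match. A match is a run of letters and not a known site.

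The receptors of the family did not pass the test. Of 7 receptor genes, 3 were tested and 0 passed. The median difference was -0.32 over these 3 and -0.01 over all 7. Il10ra, the chain that binds IL-10, read 7.20, 7.50, 6.97, 6.91 and 6.97 in KO1 to KO5, against 7.50, 7.96, 8.26, 7.23 and 7.19 in WT1 to WT5 (difference -0.52, limma adjusted p = 0.198). It was lower in the knockout arrays of each set, a pattern that 10.8% of the features tested showed. Il10rb, the shared second chain, differed by -0.32 (adjusted p = 0.423) and Il20rb by 0.14 (adjusted p = 0.602). Il20ra, Il22ra1, Il22ra2 and Ifnlr1 were under the filter, with differences of -0.02 to 0.09. Among 12 tested genes of the JAK-STAT relay and the STAT3 response 0 passed, where 0.585% of all features did. All 12 were below 0, as were 63.5% of all genes tested and 91.7% of the T cell identity genes, and the median was -0.35. Pim1, a kinase gene induced through STAT factors, had the smallest p of this list (-0.66, adjusted p = 0.0951, and 0.0324 without KO3), and Stat3 differed by -0.35 (adjusted p = 0.361). In replicates 2 and 3 the median of this list was -0.75, beside -0.76 for the T cell identity genes, and in the gene-level table it was -0.10.

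Transcription factors reported to control Il10, Il24 or Il22 included several that were lower in knockout cells. Of 23 listed, 22 were tested, 4 fell and 0 rose, where 0.489% of all features fell. The list was chosen with earlier results of these data known, so its count is not read as an excess over that share. The median was -0.22 and 21 of the 22 were below 0, beside 63.5% of all genes tested and 91.7% of the T cell identity genes. In replicates 2 and 3 the median of this list was -0.48, and in the gene-level table it was -0.07. Gata3, the lineage factor of Th2 cells, read 9.58, 9.23, 8.96, 9.13 and 9.26 in KO1 to KO5, against 10.41, 10.71, 10.74, 10.07 and 10.10 in WT1 to WT5. Its difference was -1.17 ± 0.15 (SE, limma adjusted p = 0.00827). Batf, an AP-1 family factor needed for effector cytokine programmes, read 8.19, 8.65, 8.05, 8.02 and 8.24 in KO1 to KO5, against 9.01, 9.56, 9.89, 9.36 and 9.14 in WT1 to WT5 (-1.17 ± 0.15, adjusted p = 0.00827). For both genes the knockout arrays lay below the wild-type arrays without overlap in each set, as in 10.8% of the features tested. Irf4, the partner of Batf at many sites, fell by 0.88 ± 0.13 on the log2 scale (adjusted p = 0.0173), and Nfil3, a factor linked to Il10 in T cells, by 0.80 ± 0.15 (adjusted p = 0.039). Prdm1, which encodes Blimp-1 (-0.68, adjusted p = 0.0726), and Maf, an activator of Il10 (-0.42, adjusted p = 0.158), did not pass. Nor did Stat6, the relay of IL-4 (-0.39, adjusted p = 0.297), or Ahr, an activator of Il22 (-0.13, adjusted p = 0.600). Without KO3, where 362 features passed, limma's adjusted p was 0.0235 for Prdm1, 0.0372 for Maf, 0.222 for Stat6 and 0.426 for Ahr. The pattern without overlap in each set was shown by 7 of the 22, Prdm1 and Maf among them.

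Il13, Il21 and Il4 were lower in knockout cells among the other helper cytokines. Of 19 listed, 14 were tested, 3 fell and 0 rose, where 0.489% of all features fell. This list too was chosen with earlier results known, and its count is not read as an excess. The median was -0.17, and 57.1% of the 14 were below 0, a smaller share than the 63.5% of all genes tested. Il13, a Th2 effector cytokine, read 7.65, 7.93, 7.59, 5.63 and 5.10 in KO1 to KO5, against 8.70, 8.79, 8.89, 6.89 and 6.53 in WT1 to WT5 (-1.18 ± 0.14, SE, limma adjusted p = 0.00765). Il21 fell by 1.82 ± 0.34 (adjusted p = 0.0444) and Il4, the Th2-inducing cytokine, by 0.89 ± 0.17 (adjusted p = 0.0471). In replicate 1, replicates 2 and 3 and the gene-level table Il21 differed by -0.58, -3.02 and -1.25. Il4 differed by -1.28, -1.18 and -0.41 in the same sets. In the gene-level table alone limma's adjusted p was 0.0106 for Il21 and 0.218 for Il4, with 1.99% of all features called lower. Il5 was under the filter and differed by -0.68. Quantile normalization, under which 0.505% of features passed, ended the calls of Irf4 (adjusted p = 0.0629) and Nfil3 (0.151), and with the table as block Gata3, Batf, Irf4, Nfil3, Il13 and Il4 did not pass (adjusted p = 0.432 to 0.9998) while Il21 did (0.000623), with 0.032% of features called. Irf4, Nfil3, Il4 and Il21 also failed with the replicate number as block (adjusted p = 0.0548, 0.103, 0.10 and 0.0897) and with the median of exon-level probe sets (0.0822, 0.0557, 0.0820 and 0.0776). Il4 and Il21 failed with array medians subtracted (0.0872 for each) and with no filter on dim genes (0.0574 and 0.0598), and Nfil3 with a trended, robust variance (0.0562). With 1 array left out, Gata3 and Il13 passed in every case (adjusted p up to 0.047). Batf did not pass without WT4 (0.0512) or KO4 (0.0505). Irf4 passed only without WT1, KO1, KO2 or KO3, Nfil3 only without KO3, Il4 only without KO3 or WT5, and Il21 only without WT1, KO1 or KO3.

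**Figure D4:**
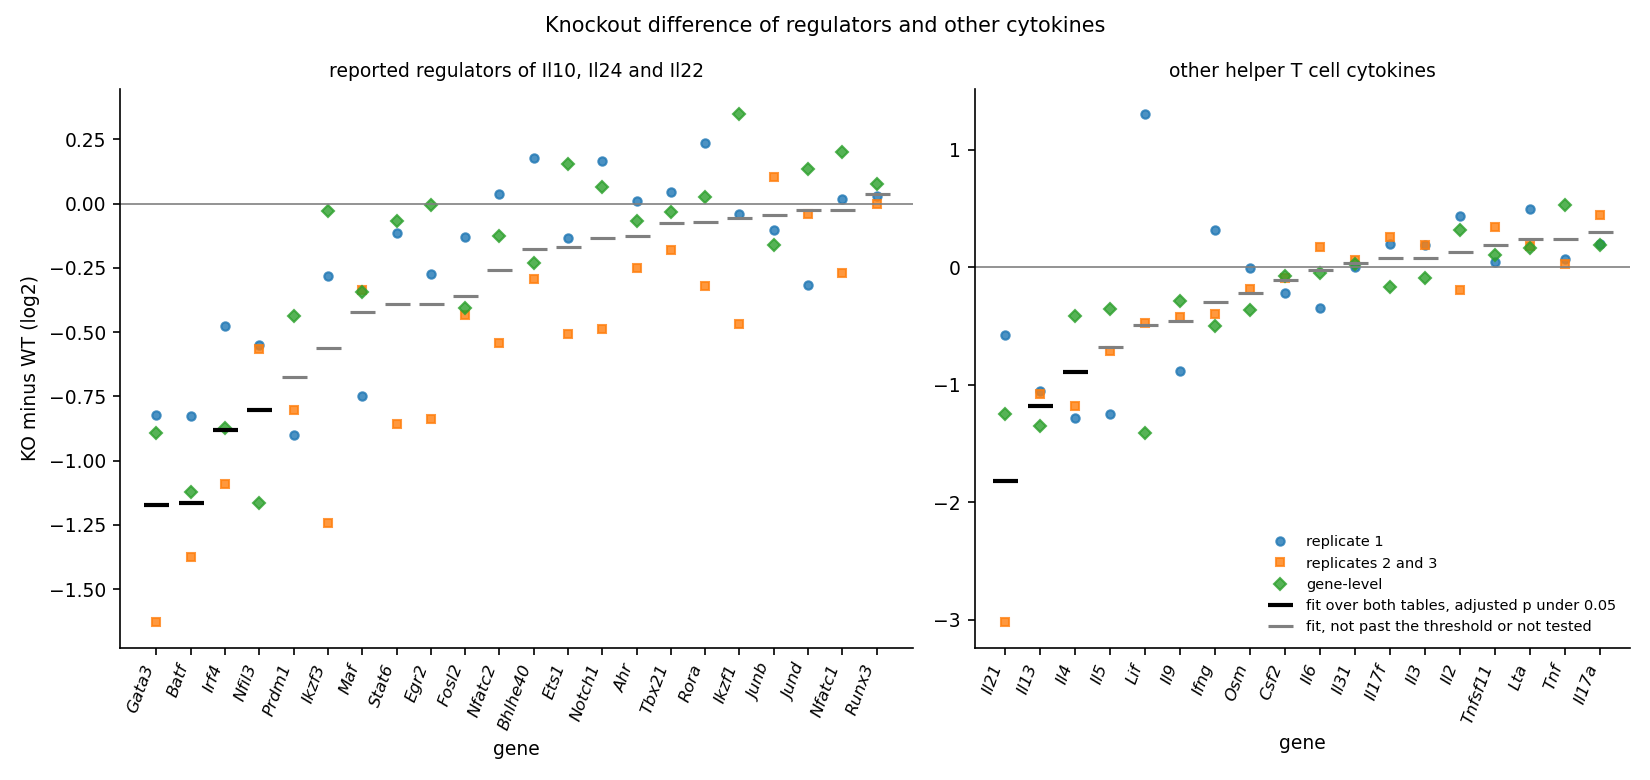
Log2 difference, KO minus WT, of the listed regulators (left panel) and other cytokines (right panel) found in both tables, ordered by the fit over all 10 arrays, with one symbol per scale set. Black bars mark genes with an adjusted p under 0.05 and grey bars the rest; Gata3, Batf, Irf4 and Nfil3 on the left and Il21, Il13 and Il4 on the right carry black bars, all below 0.

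Markers of other cell types were read beside these values. None of the tested genes of the myeloid (3 tested), B cell (4), NK cell (4) and basophil or mast cell (4) lists passed. In that order the medians of these lists were 0.18, 0.16, 0.12 and 0.22. In replicate 1, replicates 2 and 3 and the gene-level table the myeloid median was -0.16, 0.09 and 0.21. The B cell median was 0.19, 0.10 and 0.10 in the same sets. The NK cell median was -0.20, 0.26 and 0.24, and the basophil and mast cell median was 0.25, 0.43 and -0.05. The mean log2 level of the 9 basophil and mast cell markers was 4.36 in KO1, against 4.15 in WT1, 5.29 to 5.36 in KO2 and KO3, against 4.94 to 4.98 in WT2 and WT3, and 4.05 to 4.08 in KO4 and KO5, against 3.88 to 4.13 in WT4 and WT5. Kit, a receptor of mast cells and progenitors, differed by 0.41 in replicate 1, -0.11 in replicates 2 and 3 and 0.75 at gene level. In the fit of the gene-level table alone Kit was called higher in knockout cells (limma adjusted p = 0.0216), as were 0.721% of all features. Of the 4 tested basophil and mast cell genes, 1 was called in that fit, and their median there was -0.05. Of the 12 myeloid genes in both tables, most of them under the filter, 9 were above 0 and 3 below. Lyz2, the lysozyme of macrophages and granulocytes, differed by 0.60 in replicate 1, 0.58 in replicates 2 and 3 and 0.55 at gene level. Ly6g, a granulocyte marker, differed by -0.88, -0.18 and -2.34 in the same sets, and read 3.96 and 3.85 in KO4 and KO5, against 6.21 and 6.28 in WT4 and WT5. The gene of smallest p in its own list was Klrd1, an NK and effector T cell receptor gene (0.81, limma adjusted p = 0.101), Kit for basophils and mast cells (0.34, adjusted p = 0.333), Blk for B cells (0.25, adjusted p = 0.383) and Csf1r for myeloid cells (0.20, adjusted p = 0.442). Of the T cell identity genes, Cd3g differed by -0.89 (limma adjusted p = 0.190), Cd4 by -0.27 (adjusted p = 0.438) and Cd8a by -0.19 (adjusted p = 0.597). The part of these values in the Il24 difference was not tested.

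Among the genes tested that have a standard symbol, those with the profile most like that of Il24 were sought. Likeness was the Pearson correlation of log2 values, each centred on the mean of its scale set, over 10 arrays. All genes share the arrays and the split by genotype, so the coefficients are a description. Cyp11a1, the enzyme that begins steroid synthesis, was nearest (r = 0.994), followed by Pold1, the catalytic subunit of a DNA polymerase (r = 0.980), Ccr8, a chemokine receptor of Th2 and regulatory T cells (r = 0.974), Tgm2, a transglutaminase (r = 0.972), and Dglucy (r = 0.971). Cyp11a1 read 6.98, 6.35, 5.86, 6.49 and 6.23 in KO1 to KO5, against 7.71, 7.12, 7.05, 8.43 and 7.67 in WT1 to WT5. With the genotype means removed within each set, which leaves 8 arrays, r with Il24 was 0.972 for Cyp11a1, 0.903 for Pold1, 0.692 for Ccr8, 0.899 for Tgm2 and 0.695 for Dglucy. The remainders of each genotype in a set are equal and opposite, so these coefficients rest on fewer independent values than arrays.

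Counted over all features tested, with or without a standard symbol, Il10 ranked 402 in likeness to Il24. Its r was 0.831 over 10 arrays and 0.690 without KO5 and WT4, the arrays farthest from the median of Il24. With the genotype means removed r was 0.827 over 8 arrays, and it was 0.143 without WT4 and WT5. These coefficients too come from equal and opposite remainders, so the change in r only describes the weight of WT4 and WT5. Among genes with a standard symbol, those most like Il10 were Galnt4 (r = 0.955), Mcpt1, a mast cell protease (r = 0.947), and Wdr90 (r = 0.947). Next came H2aw (r = 0.930) and Havcr2, which encodes the inhibitory receptor TIM-3 (r = 0.921). None of these 5 passed the test between genotypes.

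**Figure D5:**
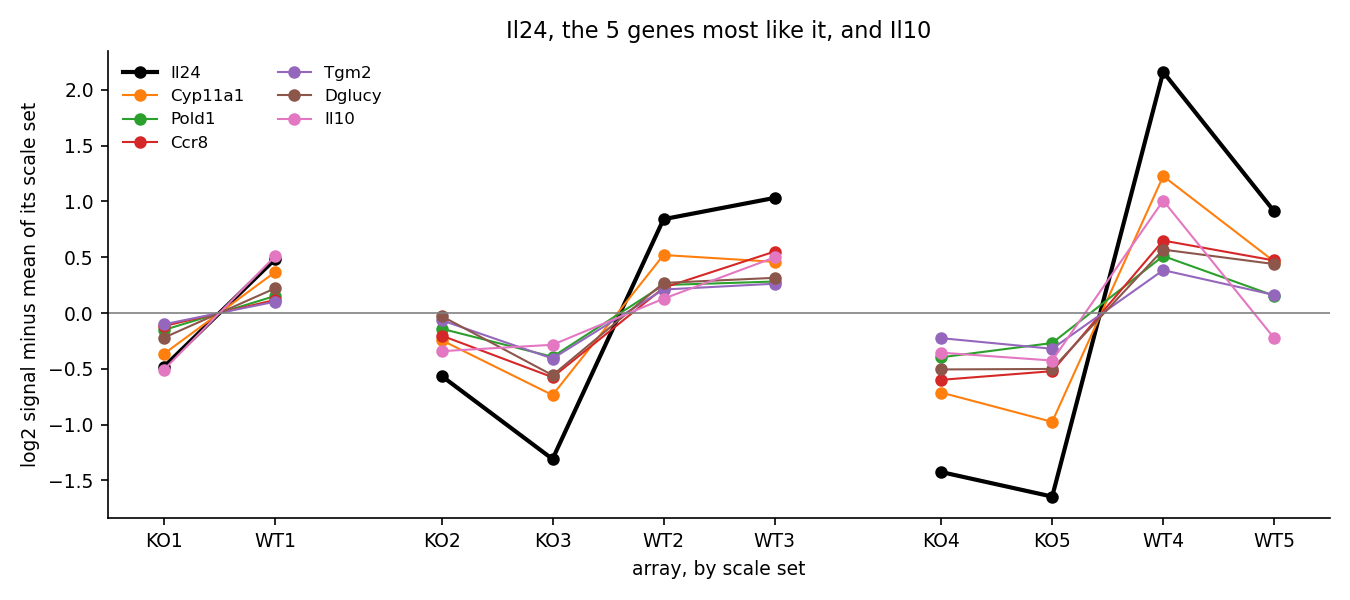
Log2 signal minus the mean of its scale set for Il24 (black), the 5 genes most like it and Il10, by array. The 5 genes were taken from those with a standard symbol. Knockout arrays stand to the left of the wild-type arrays in each set. The profiles of Il24 and Cyp11a1 move together in all 3 sets (r = 0.994), and Il10 stands high in WT4 but not in WT5.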

How the data were processed

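RNA from activated CD3+ T cells of 5 KLF13 knockout and 5 wild-type mice was hybridised to Affymetrix arrays. The deposited values are log2 signals made with RMA by the authors, per the submitters' processing notes; the sources used here name no version or settings. Exon-level replicates 1 to 3 (241576 probe sets) and gene-level replicates 4 and 5 (35556 probe sets) were deposited as 2 tables, normalized separately. Scale sets were found from column medians more than 0.5 log2 apart.

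Gene names came from the platform annotation, updated through RefSeq (GRCm38.p6), and probe sets naming 1 gene were kept (212097 and 21789). Gene values were the mean of exon-level probe sets and the brightest gene-level probe set. The 12485 genes at or above the 30th percentile in each table, and the Il22/Iltifb pair, were tested as KO minus WT with the 3 scale sets as block by 2-sided moderated tests in limma 3.58.1 (R 4.3.3), with Benjamini-Hochberg adjustment. Each table alone, the interaction of genotype and table, and exon-level probe sets were fitted likewise. The main fit was also run on simulated data with independent errors and planted changes. That simulation held no outlying array such as KO3. The members, lists, fits and alternatives were chosen with earlier results of these data known, and Il24 for its difference. The named genes were Klf13, the members, the receptors, 9 regulators (Maf, Gata3, Irf4, Batf, Prdm1, Nfil3, Stat3, Stat6, Ahr), Il4, Il5, Il13, Il21 and Ifng, up to 4 called members of each list or its member of smallest p, the 3 nearest neighbours on each side, and the 5 genes most like Il24 and Il10. The genes most like Il24 and Il10 were taken from those with a standard symbol. Genes outside this rule for naming (Ly6g, Lyz2, Tmbim4, Cd4, Cd8a) were named after their values were seen. The number of arrays limits the precision.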

Additional observations from a re-analysis of the deposited data

How the results depend on the processing

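Il24 was chosen for this contrast, so its direction under the alternatives adds no support. Changes of block, filter or variance model leave an estimate as it is, and leaving out WT1 or KO1 gives the same fit. Il24 kept its direction under all 19 alternatives tried, with log2 differences of -2.47 to -1.84. Il10 did so under the 18 that tested it (-0.95 to -0.57), with a limma adjusted p above 0.05 in each (0.0516 to 0.9998); it was under the 50th percentile filter and had no test there. The count of 73 features called over the 3 scale sets was 4 with the table as block, 35 with array medians subtracted, 31 with the median of exon-level probe sets, and 12 (without KO4) to 362 (without KO3) with 1 array left out; quantile normalization gave 63. With the replicate number as block it was 23, and the adjusted p of Il10 was 0.153; deviations of same-numbered arrays correlated at -0.424 for replicates 2 and 3 and -0.241 for replicates 4 and 5 within their scale sets, and at 0.393, 0.316 and -0.303 for replicates 1, 2 and 3 in the exon-level table without regard to scale. Since not every pair was positive, the numbers were not taken to pair the samples. The count of 339 in the gene-level table alone was 513 with a trended, robust variance and 193 to 529 with 1 array left out. Counts of 0 became up to 424 in the exon-level table, 121 for the interaction and 108 for single probe sets, each without KO3; all other omissions of 1 array gave 0 or 1 in the exon-level table and for the interaction and 0 for probe sets. Il22/Iltifb changed sign, at -0.0094 with array medians subtracted and -0.20 to 0.16 with 1 array left out (-0.43 to 0.16 at gene level, -0.26 to 0.37 at exon level, and -0.58 to 0.13 for the interaction). The interaction of Il10 ranged from -0.64 (without WT5) to 0.59 (without WT4). The cause of these changes was not tested. Il19 and Il20 were under the filter on dim genes, and the deposited signals carry no detection call.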

Other observations

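The 2 wild-type arrays of the gene-level table differed from each other in Il24 and Il10. Il24 was 1.25 higher on the log2 scale in WT4 than in WT5, and Il10 was 1.23 higher. Mcpt1 was 1.55 higher in WT4, Havcr2 1.17 and Cyp11a1 0.77. Over all genes tested the median of this difference was -0.03 and its 95th percentile 0.36, and 0.136% of genes were 1 or more higher. Gata3 (-0.03), Il4 (0.40), Il13 (0.36) and Il21 (-0.37) differed less between these arrays. Between KO4 and KO5 the differences were 0.22 for Il24 and 0.07 for Il10. The genes were singled out after their values had been seen, and a pair of arrays allows no test.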
